A study of Mus musculus with 12 samples.

Results

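41 genes of ribosome biogenesis were followed in RNA of mouse bone marrow stem and progenitor cells that differ in MDMX and in control of PU.1. They are a list of nucleolar and ribosome assembly genes drawn up by function, and all 41 were found among the 20696 genes with at least 1 estimated read. The cells were Flk2- Lin-Sca-1+Kit+ cells, the part of the lineage-negative, Sca-1 and Kit positive compartment that lacks Flk2 and is enriched for blood stem cells. They were sorted from bone marrow of 4 genotypes with 3 libraries each, and every library carries a mouse number of its own in the labels. Wild-type animals carry neither change. Mdmx-Tg animals carry extra MDMX, an inhibitor of p53 that Mdm4 encodes, as a transgene. Pu.1-URE-/- animals lack both copies of the upstream regulatory element (URE) of Spi1, which encodes PU.1, a transcription factor of the myeloid lineage. Mdmx-Tg/Pu.1-URE-/- animals, called the double mutant here, carry both changes. The promoter of the transgene, the strain, age and sex of the animals and any pooling are not given in the sources used here. The study set the transgene and the loss of the element against each other, alone and together, in a model of the step from preleukaemia to acute myeloid leukaemia.

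Ribosomes are built in the nucleolus, where RNA polymerase I transcribes a long precursor RNA. Small nucleolar ribonucleoproteins (snoRNPs) modify that precursor, and assembly factors, helicases and methyltransferases cut and fold it into the small and the large ribosomal subunit. Many of these genes are targets of MYC, and in blood the output of the nucleolus is tied to growth and to protein synthesis, which is known to be kept low in stem cells. Free ribosomal proteins Rpl5 and Rpl11 bind MDM2 when assembly fails, and p53 is then stabilised, which is the point where this machinery meets MDM2 and MDMX.

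Promoters of some members that passed the test in a comparison below are shown first. CACGTG, the E-box that MYC with its partner MAX binds, lies in part of them. They are a selection, and the shares over all matched members follow. Of the 41 genes, 36 matched the RefSeq promoter table of GRCm38.p6, and Npm1, Fbl, Rrp12, Bop1 and Rrs1 had no entry there. Each window runs from 250 bases before to 50 bases after the annotated start, in lower case with CACGTG in capitals. Nop2, a large-subunit rRNA methyltransferase, has its E-box 60 bases before the start (window chr6:125131633-125131932, plus strand), and Pes1 (window chr11:3963725-3964024, plus strand) and Wdr43 (window chr17:71615965-71616264, plus strand) have one just after it. Ftsj3 (window chr11:106256035-106256334, minus strand) and Ncl (window chr1:86359406-86359705, minus strand) have none in this window. For Wdr43 the start in the promoter table lies downstream of the GENCODE gene start (chr17:71615895). Its whole window thus falls inside the gene as GENCODE places it.
Nop2: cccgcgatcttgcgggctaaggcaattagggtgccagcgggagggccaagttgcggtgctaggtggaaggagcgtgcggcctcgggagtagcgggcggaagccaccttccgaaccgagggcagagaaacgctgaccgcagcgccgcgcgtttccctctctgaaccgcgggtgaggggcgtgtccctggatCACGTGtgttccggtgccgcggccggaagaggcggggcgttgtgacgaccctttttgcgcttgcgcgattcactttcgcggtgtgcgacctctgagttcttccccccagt
Pes1: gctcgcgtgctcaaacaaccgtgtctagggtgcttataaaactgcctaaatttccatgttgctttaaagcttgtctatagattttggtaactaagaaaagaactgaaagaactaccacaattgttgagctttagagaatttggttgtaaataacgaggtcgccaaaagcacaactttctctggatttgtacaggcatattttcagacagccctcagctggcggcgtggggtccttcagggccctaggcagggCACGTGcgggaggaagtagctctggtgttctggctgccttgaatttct
Wdr43: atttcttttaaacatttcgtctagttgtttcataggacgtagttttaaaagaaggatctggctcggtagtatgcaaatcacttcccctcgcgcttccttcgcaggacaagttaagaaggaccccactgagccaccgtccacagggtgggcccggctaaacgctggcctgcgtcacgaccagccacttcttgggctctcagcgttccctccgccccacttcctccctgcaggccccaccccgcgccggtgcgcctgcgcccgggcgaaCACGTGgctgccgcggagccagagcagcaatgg
Ftsj3: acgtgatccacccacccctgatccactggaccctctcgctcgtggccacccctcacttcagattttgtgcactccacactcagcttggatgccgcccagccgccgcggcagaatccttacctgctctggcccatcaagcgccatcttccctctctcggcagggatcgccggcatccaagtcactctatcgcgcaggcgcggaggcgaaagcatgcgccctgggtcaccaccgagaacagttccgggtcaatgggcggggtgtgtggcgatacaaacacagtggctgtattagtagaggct
Ncl: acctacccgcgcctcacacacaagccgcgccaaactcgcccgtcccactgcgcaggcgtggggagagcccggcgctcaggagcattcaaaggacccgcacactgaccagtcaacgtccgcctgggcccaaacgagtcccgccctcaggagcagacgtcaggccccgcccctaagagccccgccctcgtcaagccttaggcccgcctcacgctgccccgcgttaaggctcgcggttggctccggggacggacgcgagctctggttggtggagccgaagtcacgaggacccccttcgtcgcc

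CACGTG, which reads the same on both strands, occurred in the window of 8 of the 36 members (22.2%), namely Ltv1, Mybbp1a, Nop2, Pes1, Tsr1, Utp18, Utp20 and Wdr43, and in 8.09% of the 27025 genes of the table. When only the 150 bases before the start were read, it was left in Nop2 and Utp18 (5.56% of the 36), beside 4.92% of all genes. GAGGAA, which holds the GGAA core of sites bound by ETS factors such as PU.1, occurred on either strand in 15 members (41.7%) and 31.3% of all genes. TATAAA was found in Dkc1 and Pes1 alone (5.56%, beside 15.7% of all genes), and CTCGCGAG in Tsr1 (2.78%, beside 1.04%). These are matches of letters, not measured binding.

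Each library held 47271286 to 55067735 reads and 12824 to 14117 genes with at least 10 reads. Immunoglobulin genes took from 0.129% of the reads (double mutant 1) to 30.6% (Wild-type 1). Mdm4, the gene of the transgene product, stood at 77.9, 70.9 and 35.8 CPM for Wild-type, 535, 414 and 163 in Mdmx-Tg, 93.9, 56.2 and 90.3 in Pu.1-URE-/- and 353, 163 and 209.8 in the double mutant, so that every transgenic library lay above every library without the transgene. Spi1 stood at 38.0, 5.34 and 8.08 CPM for Wild-type, 21.6, 13.5 and 3.69 in Mdmx-Tg, 8.73, 8.73 and 23.9 in Pu.1-URE-/- and 3.48, 1.84 and 0.0198 in the double mutant. The double mutant lay below Wild-type, but the 6 libraries without the element overlapped the 6 with it (-1.59 ± 0.86 (SE) on the log2 scale, adjusted p = 0.27 by edgeR's quasi-likelihood test with Benjamini-Hochberg adjustment). Wild-type 1, Mdmx-Tg 2 and double mutant 3 stood apart in earlier work on these data. Neutrophil genes, which a sorted stem cell gate should lack, summed to 3.30 to 18.1 CPM in the libraries with the element and 24050 to 93480 CPM in those without it. Y-linked genes were high in Wild-type 2 and in double mutants 1 and 3. Of the gate genes, Ly6a, the gene of Sca-1, stood at 15 to 97.2 CPM. Kit stood at 270.2 to 327.8 CPM in the 6 libraries with the element and at 164.7 to 261 CPM in the 6 without it, with no overlap (-0.48 ± 0.14 (SE) on the log2 scale, adjusted p = 0.0482 by edgeR). Flt3, the gene of Flk2, stood at 5.82 to 22.2 CPM with the element and 10.8 to 53.7 CPM without it. CPM here are counts per 1000000 reads after TMM scaling, which sets libraries to a common level by a trimmed mean of ratios.

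All 41 genes were expressed well above the limit for testing, with at least 323 reads for any of them in any library. In TPM, transcripts per 1000000, which allow for gene length, Npm1 was highest with a mean of 667 over the 12 libraries, followed by Nop56 with 449.5 and Nhp2 with 361. Rrp12 was lowest with 3.25 TPM. Together the 41 genes took 0.566%, 0.852% and 0.963% of all reads in Wild-type, 0.733%, 0.643% and 0.789% in Mdmx-Tg, 0.393%, 0.593% and 0.388% in Pu.1-URE-/- and 0.436%, 0.655% and 0.538% in the double mutant. With immunoglobulin reads left out the share was between 0.816% and 0.967% in Wild-type, between 0.691% and 0.882% in Mdmx-Tg, between 0.395% and 0.5995% in Pu.1-URE-/- and between 0.436% and 0.683% in the double mutant. On that footing all 3 Wild-type and all 3 Mdmx-Tg libraries lay above all 6 libraries without the element. The margin was narrow, with 0.691% in Mdmx-Tg 2 and 0.683% in double mutant 2. Reads of neutrophil and progenitor genes, which were high in the libraries without the element, stayed in the total. The share with those reads left out as well was not tested. In bulk RNA, fewer cells of a type and less RNA of a gene per cell cannot be told apart.

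**Figure D1:**
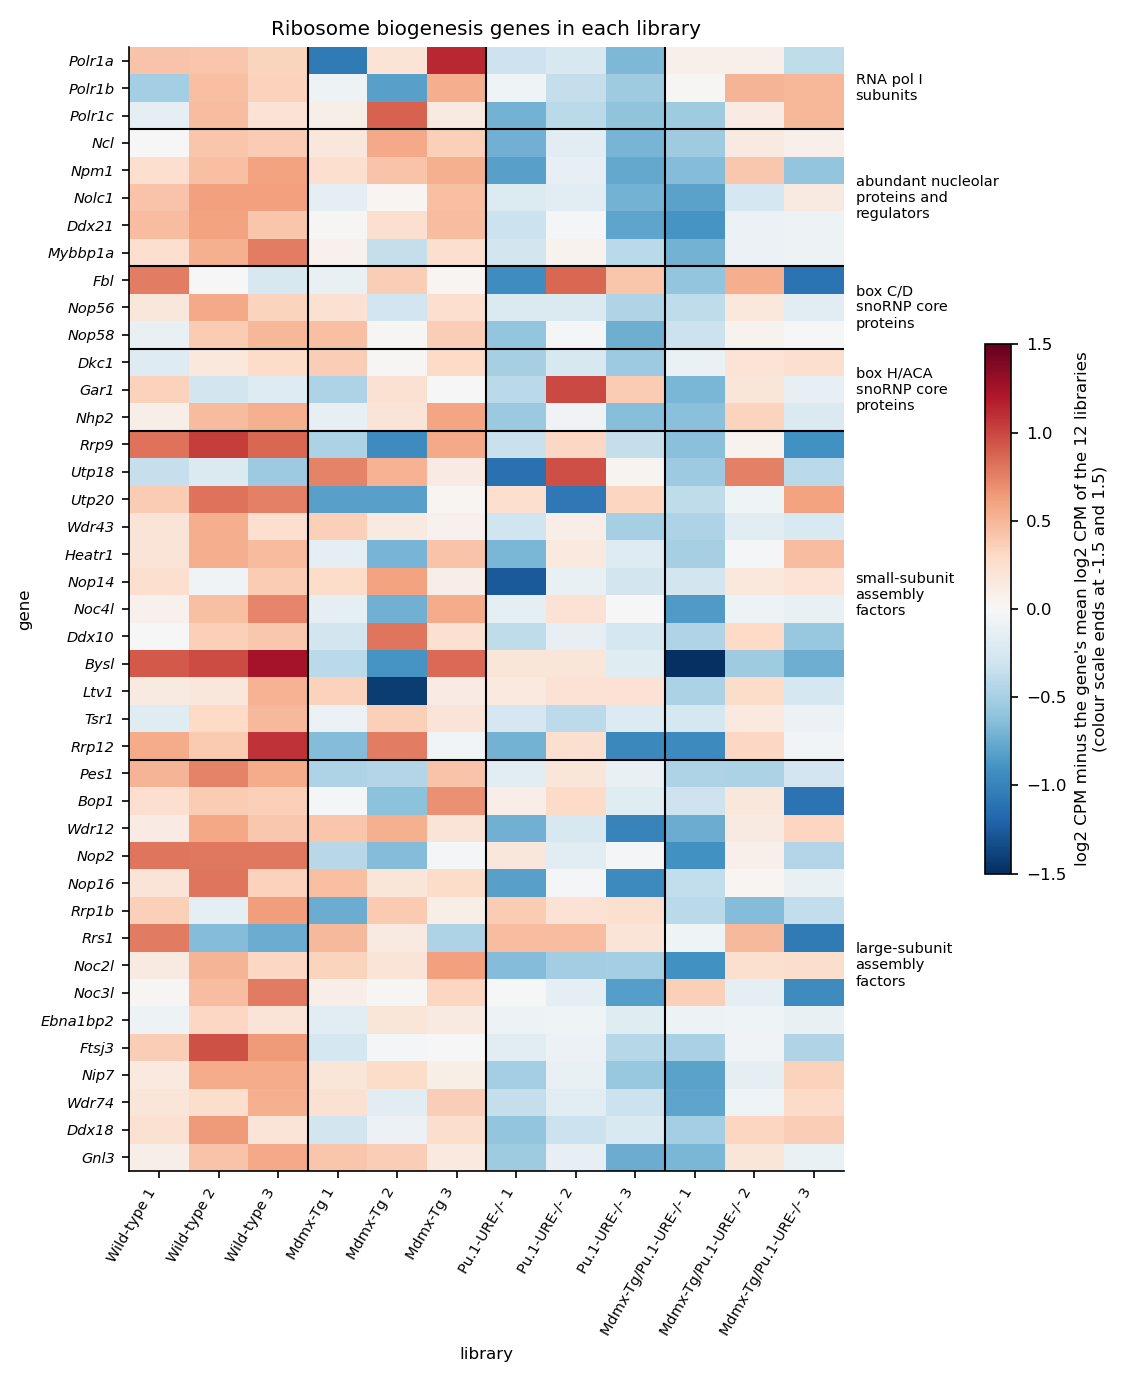
Each row is 1 of the 41 ribosome biogenesis genes, grouped by role, and each column 1 of the 12 libraries, with colour for the log2 CPM minus the gene's mean log2 CPM over the 12 libraries. Most genes are red in the 3 Wild-type columns and blue in Pu.1-URE-/- 1, Pu.1-URE-/- 3 and double mutant 1, with Rrs1, Gar1 and Utp18 among those that differ.

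The libraries within a genotype were not alike. Scaled by TMM, the summed level of the 41 genes was 6641, 8243 and 8108 CPM in Wild-type, 6628, 6723 and 7491 in Mdmx-Tg, 4378, 5647 and 4204 in Pu.1-URE-/- and 4240, 6531 and 5644 in the double mutant. Pu.1-URE-/- 2 and double mutants 2 and 3 thus stood above the other 3 libraries without the element. Of the 41 genes, 35 had their lowest level in a library without the element, among them 11 in double mutant 1 and 10 in Pu.1-URE-/- 3. The highest level fell in a library with the element for 38 genes, 13 each in Wild-type 2 and Wild-type 3. By group mean, Wild-type was highest for 28 genes, Mdmx-Tg for 9, Pu.1-URE-/- for 3 and the double mutant for 1. Pu.1-URE-/- was lowest for 25 genes and the double mutant for 13. The highest library exceeded the lowest by 1.41 times for Ebna1bp2, the steadiest gene, and by 7.30 times for Bysl, the most variable.

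With loss of the element, 9 of the 41 ribosome biogenesis genes were called lower, though 0 were in the double mutant against Mdmx-Tg alone. Set over both transgene states (6 libraries without the element against 6 with it, as the mean of the Pu.1-URE-/- against Wild-type and double mutant against Mdmx-Tg differences), these 9 genes and no gene in the other direction passed an adjusted p of 0.05: Nop16, Ftsj3, Ddx21, Npm1, Ncl, Wdr43, Gnl3, Nolc1 and Wdr12. That is 22.0% of the list, where 3.81% of the 15012 genes tested were lower and 8.08% higher. Before adjustment 25 genes were lower at p below 0.05 (11.4% of all genes), and 38 of 41 had a log2 change below 0, with a median of -0.50 where the median of all genes was -0.000451. In Ddx21 and Nop16 the 6 libraries without the element all lay below the 6 with it, as in 1.89% of all genes. The number of calls rested on single libraries: it was 0 without Wild-type 2, Pu.1-URE-/- 1 or Pu.1-URE-/- 3, 3 without Mdmx-Tg 2 or double mutant 1, and 4 without Wild-type 3 or double mutant 3. It was 2 without Wild-type 1, Mdmx-Tg 2 and double mutant 3 together, and 2 with Y-linked expression as a covariate, against 19 by DESeq2. The share of all genes called in these other fits is not given, here or below. Their counts are thus not a result particular to the list. The median stayed between -0.60 and -0.44 with any 1 library left out.

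**Figure D2:**
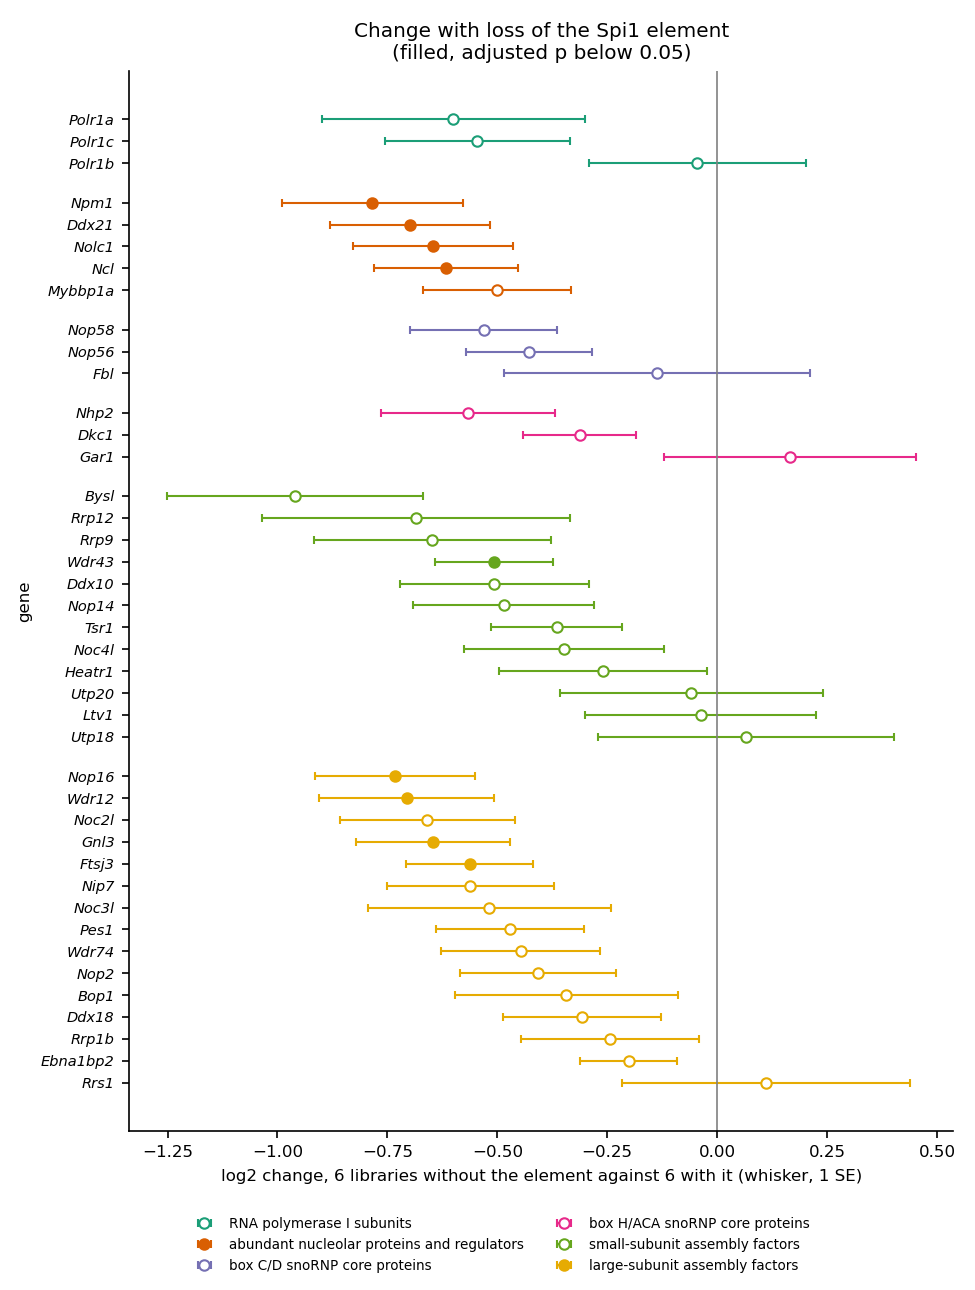
Points give the log2 change of each of the 41 genes in the 6 libraries without the Spi1 element against the 6 with it, and whiskers 1 standard error. The 9 filled points, past an adjusted p of 0.05, all lie below 0, and Gar1, Rrs1 and Utp18 are the 3 genes with a value above 0.

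Of the 3 listed subunits of RNA polymerase I, the enzyme that transcribes the rRNA precursor, none passed the test, and all had a lower mean in Pu.1-URE-/- than in Wild-type. Polr1c, a subunit shared with RNA polymerase III and the most abundant of them (90.0 TPM, chr17:46243920-46248054, minus strand), stood at 80.5, 122 and 103 CPM for Wild-type, 94.99, 165 and 98.0 in Mdmx-Tg, 54.4, 67.5 and 58.6 in Pu.1-URE-/- and 61.6, 96.9 and 126 in the double mutant. Pu.1-URE-/- lay below Wild-type without overlap, while the double mutant overlapped every other group. Its log2 change with element loss was -0.55 ± 0.21 (SE), with an adjusted p of 0.12. Polr1a, the largest subunit, had a log2 change of -0.60 ± 0.30 (SE) (adjusted p = 0.229) and Polr1b, the other large catalytic subunit, of -0.04 ± 0.25 (SE) (adjusted p = 0.947).

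The 5 abundant nucleolar proteins and regulators held 4 of the 9 calls, all lower. Npm1, the histone chaperone nucleophosmin of the outer nucleolus (chr11:33152287-33163206, minus strand), stood at 807, 919 and 1025 CPM for Wild-type, 805, 908 and 977 in Mdmx-Tg, 385, 622 and 397 in Pu.1-URE-/- and 432, 896 and 449 in the double mutant. Double mutant 2 lay among the libraries with the element and the other 5 without it lay below all of those. Npm1 fell by 0.78 on the log2 scale (SE 0.21, adjusted p = 0.0323). Npm1 has near-identical processed copies in the genome, and how reads were divided among them is not visible in the files.

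Ncl, the gene of nucleolin, which binds the rRNA precursor (chr1:86344719-86359400, minus strand), stood at 809.7, 1076 and 1050 CPM for Wild-type, 904, 1192 and 1035 in Mdmx-Tg, 488, 719.5 and 497 in Pu.1-URE-/- and 558, 886 and 848 in the double mutant. The 3 Pu.1-URE-/- libraries and double mutant 1 were the 4 lowest, and double mutants 2 and 3 reached the lower end of Wild-type. The change was -0.62 ± 0.16 (SE) with an adjusted p of 0.0338. Ddx21, an RNA helicase that couples polymerase I transcription to processing (chr10:62580251-62602281, minus strand), stood at 141, 155 and 136 CPM for Wild-type, 103, 121 and 141 in Mdmx-Tg, 81.7, 100.5 and 59.2 in Pu.1-URE-/- and 55.2, 96.0 and 97.0 in the double mutant. None of the 6 libraries without the element reached the lowest with it. The change was -0.70 ± 0.18 (SE) with an adjusted p of 0.0313, and in the double mutant against Mdmx-Tg alone it was -0.56 ± 0.26 (SE) with an adjusted p of 0.301.

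Nolc1, a chaperone of snoRNPs on their way to the nucleolus (chr19:46075863-46085530, plus strand), stood at 178, 201 and 202 CPM for Wild-type, 120.2, 135 and 181 in Mdmx-Tg, 114, 118 and 80.4 in Pu.1-URE-/- and 75.7, 109.5 and 145 in the double mutant. Wild-type lay above all libraries but Mdmx-Tg 3, and the groups with and without the element overlapped through Mdmx-Tg 1 and 2. The change with element loss was -0.65 ± 0.18 (SE) with an adjusted p of 0.0416. Mybbp1a, a nucleolar protein that binds polymerase I and p53, did not pass the test (-0.50 ± 0.17 (SE), adjusted p = 0.0801). Mybbp1a was at 161, 194 and 230.3 CPM for Wild-type, 140.4, 105 and 159.7 in Mdmx-Tg, 111, 139 and 102 in Pu.1-URE-/- and 82.2, 126 and 128 in the double mutant, so that Wild-type lay above all 9 other libraries.

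Core proteins of the box C/D snoRNPs, which guide ribose methylation of rRNA, held no call. Nop56, a scaffold protein of this particle and second in TPM among the 41 (chr2:130274430-130279313, plus strand), stood at 649.6, 857 and 728 CPM for Wild-type, 673, 471 and 684 in Mdmx-Tg, 494, 495 and 422 in Pu.1-URE-/- and 441, 644 and 516 in the double mutant. All Pu.1-URE-/- and double mutant libraries lay below all of Wild-type, and Mdmx-Tg 2 lay with them. Its change with element loss was -0.43 ± 0.14 (SE) (adjusted p = 0.0783), and that of Nop58, its partner in the scaffold, was -0.53 ± 0.17 (SE) (adjusted p = 0.0637). Nop58 stood at 224, 316 and 343 CPM for Wild-type, 332, 244 and 312 in Mdmx-Tg, 161, 239 and 146 in Pu.1-URE-/- and 194, 252 and 241 in the double mutant. Fbl, the methyltransferase fibrillarin, ranged from 24.8 to 96.9 CPM with both ends in libraries without the element, and its change was -0.14 ± 0.35 (SE) (adjusted p = 0.864).

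Core proteins of the box H/ACA snoRNPs, which guide pseudouridylation and also sit in telomerase, held no call either. Nhp2, the most abundant of the 3 (chr11:51619735-51623714, plus strand), stood at 304, 399 and 413 CPM for Wild-type, 262, 329 and 432 in Mdmx-Tg, 194, 277 and 184 in Pu.1-URE-/- and 185, 361 and 247 in the double mutant. Pu.1-URE-/- 1 and 3 and double mutants 1 and 3 lay below every library with the element, while double mutant 2 and Pu.1-URE-/- 2 lay among them. The change was -0.57 ± 0.20 (SE) with an adjusted p of 0.0879. Dkc1, the pseudouridine synthase dyskerin, stood at 367, 472 and 510.4 CPM for Wild-type, 544, 426 and 519.6 in Mdmx-Tg, 299, 357.9 and 289 in Pu.1-URE-/- and 392, 484 and 501 in the double mutant. The 3 Pu.1-URE-/- libraries were the lowest of the 12, and the double mutant lay above them all and within the range of Wild-type. The double mutant against Pu.1-URE-/- differed by 0.54 ± 0.18 (SE) with an adjusted p of 0.406. Gar1, the smallest in level, ranged from 9.71 to 31.0 CPM, with a log2 change of 0.17 ± 0.29 (SE) (adjusted p = 0.779).

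Among the 12 small-subunit assembly factors, 11 had a log2 change below 0 with element loss, and 1, Wdr43, passed the test. Wdr43, a subunit of the early complex that starts small-subunit assembly and the most abundant of the 12 (chr17:71615895-71659031, plus strand), stood at 292, 372.3 and 305 CPM for Wild-type, 326, 281 and 267 in Mdmx-Tg, 208, 274 and 182 in Pu.1-URE-/- and 186, 228 and 219 in the double mutant. All 6 libraries without the element lay below all of Wild-type, and only Pu.1-URE-/- 2 entered the range of Mdmx-Tg. The change was -0.51 ± 0.13 (SE) with an adjusted p of 0.0339.

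Bysl, the gene of bystin, which acts late in small-subunit assembly (chr17:47599331-47611492, minus strand), gave a pattern of its own. Bysl stood at 83.8, 87.7 and 105 CPM for Wild-type, 33.6, 24.1 and 80.2 in Mdmx-Tg, 50.2, 50.6 and 39.3 in Pu.1-URE-/- and 14.4, 30.6 and 26.8 in the double mutant. Wild-type lay above all 9 other libraries, the double mutant lay below Pu.1-URE-/- without overlap, and Mdmx-Tg was spread from the level of the double mutant to near Wild-type. The double mutant fell by 1.95 on the log2 scale against Wild-type (SE 0.42, 3.85-fold, adjusted p = 0.032). The call was lost in 7 of 12 fits that left out 1 library, with an adjusted p of up to 0.117 without double mutant 1. The log2 changes of the single mutants were -0.98 ± 0.41 (SE) for Pu.1-URE-/- (adjusted p = 0.216) and -1.01 ± 0.41 (SE) for Mdmx-Tg (adjusted p = 0.442), neither past the threshold. The interaction term was 0.04 ± 0.58 (SE).

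The other 10 small-subunit factors did not pass in any comparison. Rrp9, which belongs to the U3 particle, stood at 91.1, 107 and 94.1 CPM for Wild-type, 37.5, 27.1 and 76.8 in Mdmx-Tg, 41.1, 64.3 and 40.4 in Pu.1-URE-/- and 33.7, 54.0 and 27.8 in the double mutant. Wild-type again lay above the 9 other libraries, but Mdmx-Tg 3 was nearly 3 times as high as Mdmx-Tg 2. Its changes were -1.002 ± 0.38 (SE) in Pu.1-URE-/-, -1.05 ± 0.38 (SE) in Mdmx-Tg and -1.34 ± 0.39 (SE) in the double mutant, with adjusted p of 0.174, 0.414 and 0.0927. For the large scaffold proteins of the early complex, Utp20 and Heatr1, element loss gave -0.06 ± 0.30 (SE) and -0.26 ± 0.24 (SE). Nop14 (-0.49 ± 0.21 (SE)), the helicase Ddx10 (-0.51 ± 0.21 (SE)), Rrp12 (-0.68 ± 0.35 (SE)), Noc4l (-0.35 ± 0.23 (SE)) and Tsr1 (-0.37 ± 0.15 (SE)) lay below 0 by more than 1 SE. Ltv1, a factor of small-subunit export, was at -0.04 ± 0.26 (SE). Utp18, another subunit of the early complex, lay on the other side in Mdmx-Tg, where its 3 libraries (55.1, 47.3 and 35.9 CPM) lay above Wild-type (25.9, 28.4 and 22.5 CPM), with a log2 change of 0.85 ± 0.48 (SE) and an adjusted p of 0.567.

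Large-subunit assembly factors held 4 of the 9 calls with element loss, and 14 of 15 lay below 0. Nop16, a factor of early large-subunit particles (chr13:54584185-54590090, minus strand), stood at 218, 334 and 243 CPM for Wild-type, 262, 218 and 232 in Mdmx-Tg, 109, 187 and 98.7 in Pu.1-URE-/- and 148, 194 and 176 in the double mutant. The highest library without the element, double mutant 2, lay below the lowest with it. Nop16 had the smallest adjusted p of the list (0.0259), at -0.73 ± 0.18 (SE), and in Pu.1-URE-/- against Wild-type alone the change was -1.01 ± 0.26 (SE) with an adjusted p of 0.0509.

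Ftsj3, a ribose methyltransferase of the large-subunit precursor (chr11:106249142-106256079, minus strand), was the 1 gene called in 3 comparisons. Ftsj3 stood at 122, 185 and 148 CPM for Wild-type, 79.2, 93.7 and 94.9 in Mdmx-Tg, 84.1, 89.3 and 70.3 in Pu.1-URE-/- and 67.6, 91.7 and 69.4 in the double mutant. Wild-type lay above all 9 other libraries, which spanned 67.6 to 94.9 CPM. It was lower in Pu.1-URE-/- against Wild-type (-0.90 ± 0.20 (SE), adjusted p = 0.0305), in the double mutant against Wild-type (-0.99 ± 0.21 (SE), adjusted p = 0.0268) and with element loss over both transgene states (-0.56 ± 0.14 (SE), adjusted p = 0.0295). In Mdmx-Tg against Wild-type the log2 change was -0.76 ± 0.20 (SE), which did not pass (adjusted p = 0.367). These 3 comparisons share libraries and are not separate evidence. With each of the 12 libraries left out in turn, the call was kept in 8 of 12 fits in the first, 8 in the second and 6 in the third, and adjusted p reached 0.141 without Pu.1-URE-/- 3, 0.108 without double mutant 3 and 0.0786 without Wild-type 2.

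**Figure D3:**
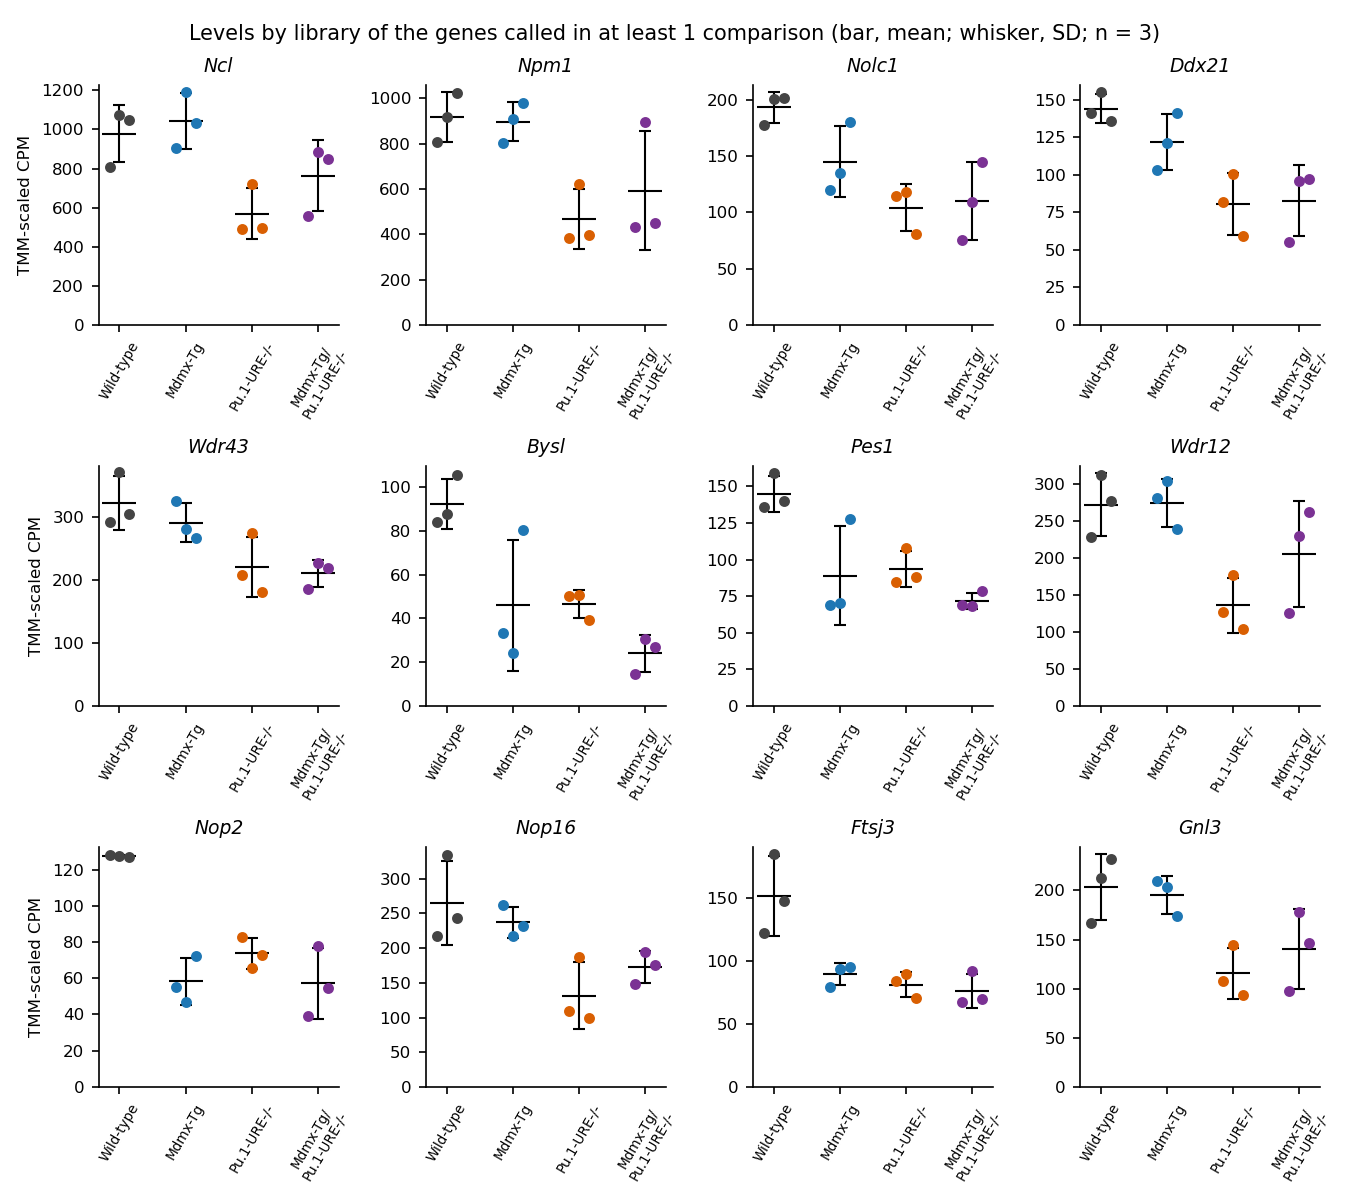
Each panel gives the TMM-scaled CPM of 1 of the 12 genes called in at least 1 comparison, with points for libraries, a bar for the mean and whiskers for the SD of 3 libraries. In Ftsj3, Nop2, Bysl and Pes1 the 3 Wild-type points lie above all others, while in Npm1, Ncl, Wdr12, Gnl3 and Nop16 Mdmx-Tg overlaps Wild-type.

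Pes1, Bop1 and Wdr12 form the PeBoW complex of the large subunit, and each of them had a different set of calls. Wdr12 (chr1:60069785-60098645, minus strand) stood at 228, 312 and 276 CPM for Wild-type, 280.5, 303 and 239 in Mdmx-Tg, 127, 177 and 104 in Pu.1-URE-/- and 126, 229.5 and 263 in the double mutant. Pu.1-URE-/- lay below all 6 libraries with the element, whereas double mutants 2 and 3 lay among them. The change with element loss was -0.71 ± 0.20 (SE) (adjusted p = 0.0425). Pes1 (chr11:3963975-3980004, plus strand) stood at 136, 159 and 140.1 CPM for Wild-type, 69.1, 70.2 and 128 in Mdmx-Tg, 84.6, 108 and 88.4 in Pu.1-URE-/- and 68.9, 68.3 and 78.3 in the double mutant. Wild-type lay above all others, and the double mutant below Pu.1-URE-/-. Pes1 was called lower in the double mutant against Wild-type (-1.01 ± 0.24 (SE), adjusted p = 0.0459), and not with element loss (-0.47 ± 0.17 (SE), adjusted p = 0.0963). Bop1 ranged from 19.9 to 69.0 CPM and had no call (element loss -0.34 ± 0.25 (SE)).

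Nop2 (chr6:125131909-125144753, plus strand) stood at 128, 127 and 127 CPM for Wild-type, 55.3, 47.2 and 72.2 in Mdmx-Tg, 82.7, 65.8 and 73.0 in Pu.1-URE-/- and 39.2, 77.9 and 54.6 in the double mutant. The 3 Wild-type libraries differed by 1 CPM and lay above all others, which spanned 39.2 to 82.7 CPM. The double mutant was lower than Wild-type by -1.16 ± 0.25 (SE) (adjusted p = 0.0327), and Mdmx-Tg by -1.13 ± 0.25 (SE), which did not pass (adjusted p = 0.349). Gnl3, the gene of nucleostemin, a GTPase found in nucleoli of stem cells (chr14:31012433-31019152, minus strand), stood at 167, 212 and 232 CPM for Wild-type, 209, 203 and 173 in Mdmx-Tg, 108, 145 and 93.9 in Pu.1-URE-/- and 97.3, 178 and 146 in the double mutant. Mdmx-Tg lay within the range of Wild-type, and double mutant 2 alone of the 6 libraries without the element reached that range. The change with element loss was -0.65 ± 0.17 (SE) (adjusted p = 0.0362).

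Of the other large-subunit factors, Noc2l (-0.66 ± 0.20 (SE), adjusted p = 0.0536) and Nip7 (-0.56 ± 0.19 (SE), adjusted p = 0.0799) came closest to the threshold with element loss. Noc2l stood at 34.3, 37.5 and 37.6 CPM in Pu.1-URE-/-, below every library of Wild-type and Mdmx-Tg (59.0 to 82.0 CPM), while the double mutant was spread from 28.7 to 64.3. Noc3l, the partner of Noc2l, had a log2 change of -0.52 ± 0.28 (SE), Wdr74 of -0.45 ± 0.18 (SE), the helicase Ddx18 of -0.31 ± 0.18 (SE) and Rrp1b of -0.24 ± 0.20 (SE). Rrp1b was lower in the double mutant (34.9, 29.4 and 35.8 CPM) than in Pu.1-URE-/- (60.3, 53.6 and 54.5 CPM) without overlap (-0.75 ± 0.29 (SE), adjusted p = 0.413). Ebna1bp2, the most abundant large-subunit factor of the list (187 TPM), stood at 202, 266 and 245 CPM for Wild-type, 191, 242 and 234 in Mdmx-Tg, 203, 204 and 188 in Pu.1-URE-/- and 202, 204 and 198 in the double mutant. Its 6 libraries without the element spanned 188.5 to 204 CPM, at the low end of those with it (191 to 266 CPM), and the change was -0.20 ± 0.11 (SE) (adjusted p = 0.28). Rrs1, which helps to load the smallest rRNA, ranged from 19.5 to 70.1 CPM, with a log2 change of 0.11 ± 0.33 (SE).

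The median change with element loss was -0.70 without the transgene and -0.31 with it, and for none of the 41 genes did the difference between the 2 pass the test. In Pu.1-URE-/- against Wild-type 1 gene, Ftsj3, was called lower (0.866% of all genes) and 0 were called higher. At an unadjusted p below 0.05, 25 genes were lower (8.18% of all genes), and in 30 the 3 Pu.1-URE-/- libraries lay below the 3 Wild-type libraries, 73.2% of the list beside 13.7% of all genes. Calls in this comparison numbered 0 without Wild-type 2, Wild-type 3, Pu.1-URE-/- 1 or Pu.1-URE-/- 3, 5 without Pu.1-URE-/- 2 or double mutant 1, 2 without Mdmx-Tg 3 or double mutant 2, and 18 by DESeq2. No share of all genes is given for these fits. In the double mutant against Mdmx-Tg 0 genes were called (0.646% of all genes were called lower), by DESeq2 and limma-voom as well. The genes lower at an unadjusted p below 0.05 were Wdr43 and Bysl (6.16% of all genes), and the groups were apart in Ncl, Ddx21, Wdr43 and Nop16 (7.25% of all genes). Both counts are near the shares of all genes and are not a result particular to the list. Of the 41 values, 36 lay below 0.

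The interaction term, which is the element effect with the transgene minus that without it, was called for 0 of the 41 genes by edgeR, DESeq2 and limma-voom (0.0% of all genes by edgeR). It had an unadjusted p below 0.05 in Ddx18 and Ftsj3, where 5.8% of all genes had one, and lay above 0 in 35 of 41 genes with a median of 0.38. Ddx18 stood at 106, 141 and 103 CPM for Wild-type, 75.1, 85.5 and 109 in Mdmx-Tg, 60.2, 72.4 and 77.4 in Pu.1-URE-/- and 63.6, 114 and 117 in the double mutant. Pu.1-URE-/- lay below Wild-type and the double mutant overlapped both. Its interaction was 0.87 ± 0.36 (SE) with an adjusted p of 0.843. With the series of the mouse numbers as a block the median interaction was 0.08.

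With the transgene alone, none of the genes passed edgeR's test, and a few lay below Wild-type in every library. In Mdmx-Tg against Wild-type edgeR called 0 of the 41 genes (0.0% of all genes), DESeq2 called 2 and limma-voom 0, and 7 were lower at an unadjusted p below 0.05 (5.41% of all genes). The 3 Mdmx-Tg libraries lay below Wild-type in 7 genes, Mybbp1a, Rrp9, Utp20, Bysl, Pes1, Nop2 and Ftsj3, beside 7.05% of all genes. The median change was -0.17. Without Mdmx-Tg 3, which lay nearest to Wild-type in Bysl, Rrp9, Pes1 and Nop2, 1 gene was called. Utp20 stood at 23.0, 31.2 and 29.9 CPM for Wild-type, 10.1, 10.1 and 18.2 in Mdmx-Tg, 21.2, 8.41 and 22.1 in Pu.1-URE-/- and 13.6, 17.0 and 26.9 in the double mutant. Its Mdmx-Tg libraries and Pu.1-URE-/- 2 were low, while Pu.1-URE-/- 1 and 3 lay just under Wild-type. Among them, the 6 genes Mybbp1a, Rrp9, Bysl, Pes1, Nop2 and Ftsj3 were those in which all 3 Wild-type libraries lay above all 9 others, a pattern shown by 1.3% of all genes.

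Over both element states the transgene gave 0 calls by edgeR (0.0% of all genes), 0 by limma-voom and 3 by DESeq2, and 3 by edgeR without Mdmx-Tg 3. At an unadjusted p below 0.05 there were 6 lower and 1 higher, where 16.3% of all genes reached it in either direction. The genes lower were Rrp9, Bysl, Pes1, Nop2, Rrp1b and Ftsj3, and Dkc1 was higher (0.34 ± 0.13 (SE), adjusted p = 0.228). The 6 transgenic libraries lay wholly below the other 6 in no gene of the list and in 0.506% of all genes. The median was -0.05. In the double mutant against Pu.1-URE-/- edgeR, DESeq2 and limma-voom called 0 (0.0% of all genes by edgeR), and 2 genes each were higher (Polr1c and Dkc1) and lower (Bysl and Rrp1b) at an unadjusted p below 0.05, beside 10.7% of all genes. The double mutant lay below Pu.1-URE-/- in Bysl, Pes1 and Rrp1b, not more often than among all genes (8.95%). It lay above Pu.1-URE-/- in Polr1b and Dkc1, where the share of all genes is not given. The median was 0.15.

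Both changes together, in the double mutant against Wild-type, gave 4 genes called lower, Ftsj3, Bysl, Nop2 and Pes1, and 0 called higher. That is 9.76% of the list beside 0.873% of all genes. The groups were apart with the double mutant lower in 16 genes (10.8% of all genes), and 38 of 41 values lay below 0 with a median of -0.48. The count was 0 without Wild-type 2, Wild-type 3, double mutant 1 or double mutant 3, 1 without Wild-type 1 or Pu.1-URE-/- 3, 2 without Pu.1-URE-/- 1, 0 with the 3 libraries that stood apart left out together, 0 with Y-linked expression as a covariate and 9 by DESeq2.

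The mouse numbers were divided here into 3 series, at cut points chosen for this check, and Y-linked reads split the libraries as well. From TMM-scaled levels, the median log2 difference of the 41 genes between libraries without and with the element was -0.49 over all 12. It was -0.59 within the first series (2 against 2), -0.31 within the second (2 against 1) and -0.34 within the third (2 against 3). The numbers of genes below 0 were 35, 27 and 35 of 41. It was -0.38 among the 9 libraries with few Y-linked reads and -0.78 among the 3 with many (2 against 1). All these values have the same sign.

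Among other genes of the machinery, calls were more often lower than higher. With element loss, 7 of 46 other small-subunit assembly factors were called lower and 0 higher, and 5 of 51 other large-subunit factors were lower and 1, Efl1, higher. Their median changes were -0.30 each. Wdr75, a subunit of the early small-subunit complex, stood at 72.9, 118 and 115 CPM for Wild-type, 94.1, 78.6 and 94.9 in Mdmx-Tg, 49.1, 61.5 and 48.3 in Pu.1-URE-/- and 49.3, 55.1 and 61.0 in the double mutant. All 6 libraries without the element lay below all 6 with it, and the change was -0.82 ± 0.15 (SE) (adjusted p = 0.00619). Emg1, an rRNA methyltransferase of the small subunit, stood at 194, 219 and 233 CPM for Wild-type, 207, 205 and 227 in Mdmx-Tg, 104, 138 and 117 in Pu.1-URE-/- and 108, 170.5 and 149.7 in the double mutant. It separated the same libraries (-0.72 ± 0.14 (SE), adjusted p = 0.00698). The other small-subunit calls, by rising p, were Pno1 (-0.81 ± 0.18 (SE)), Riok2 (-0.57 ± 0.15 (SE)), Utp4 (-0.46 ± 0.12 (SE)), Aatf (-0.64 ± 0.18 (SE)) and Utp14a (-0.81 ± 0.23 (SE)). Mak16 (-0.71 ± 0.19 (SE)), Rpf2 (-0.65 ± 0.18 (SE)), Nop53 (-0.50 ± 0.14 (SE)), Rsl24d1 (-0.48 ± 0.14 (SE)) and Mdn1 were those of the large subunit. Of 12 other snoRNP proteins 1 was lower, Naf1, a chaperone of H/ACA assembly (4.97, 3.92 and 6.23 CPM for Wild-type, 5.42, 12.3 and 5.76 in Mdmx-Tg, 1.47, 1.85 and 1.48 in Pu.1-URE-/- and 2.23, 1.73 and 2.28 in the double mutant), at -1.78 ± 0.43 (SE) (adjusted p = 0.0218). The 12 other polymerase I subunits and initiation factors had 0 calls and a median of -0.14, and 15 exosome and nuclease genes 0 calls and a median of -0.14. At an unadjusted p below 0.05 edgeR gave 2 lower in each, Taf1d (-0.43 ± 0.17 (SE)) and Rrn3 (-0.50 ± 0.22 (SE)) in the first and Exosc1 (-0.42 ± 0.15 (SE)) and Exosc2 (-0.38 ± 0.15 (SE)) in the second. At that level 11.4% of all genes were lower, so these counts are not a result particular to the 2 lists. Of the snoRNA host genes listed, 5 were tested, with 0 calls, 4 lower at an unadjusted p below 0.05, among them Tpt1 (-0.47 ± 0.15 (SE)), and a median of -0.47. The other listed hosts were not found among the genes with at least 1 estimated read, so their levels could not be given.

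Of the 72 cytosolic ribosomal protein genes, whose products the assembly factors join to rRNA, 17 fell in the same comparison and 0 rose, with a median of -0.52, among them Rps9 (-0.75 ± 0.16 (SE), adjusted p = 0.014), Rps6 (-0.64 ± 0.15 (SE)), Rpl9 (-0.64 ± 0.15 (SE)) and Rpl27a (-0.88 ± 0.22 (SE)). Many ribosomal protein genes have near-identical processed copies, so their single values are less certain. Beside the counts of called genes in all these lists stand the same 3.81% of all genes lower and 8.08% higher. Beside counts at an unadjusted p below 0.05 stand 11.4% of all genes lower.

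**Figure D4:**
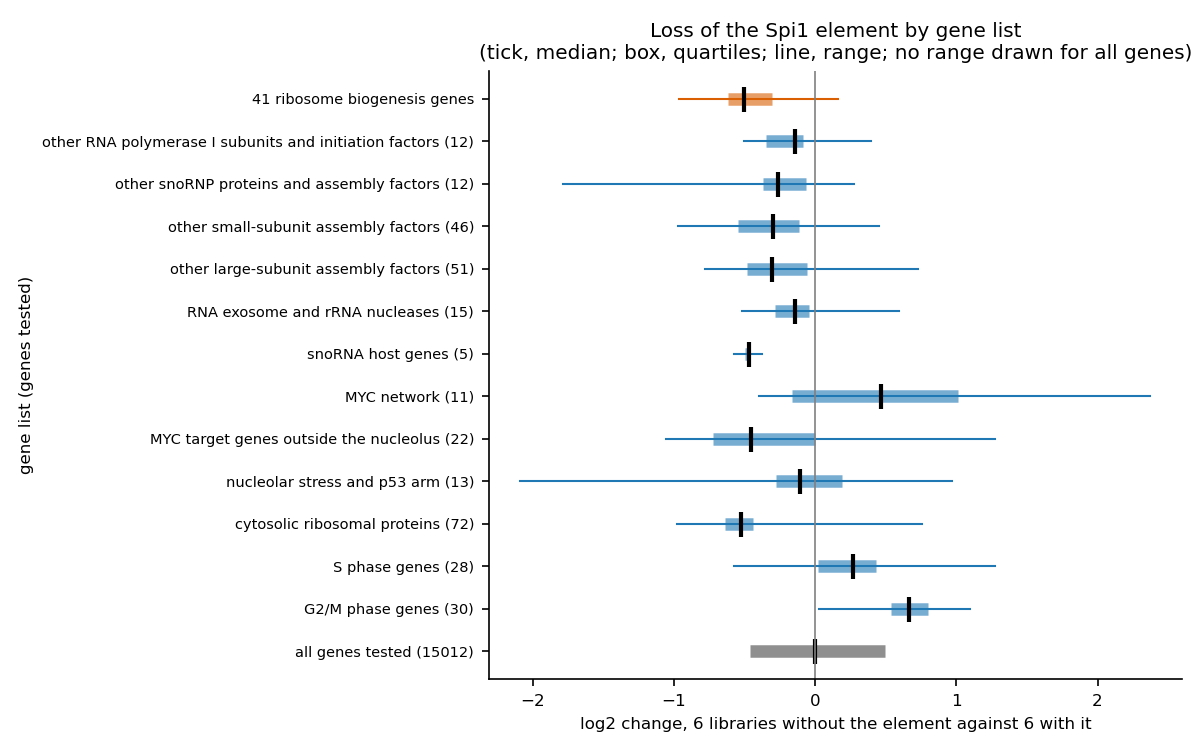
Each line gives the log2 changes with loss of the Spi1 element of 1 gene list: tick for the median, box for the quartiles, line for the range. The 41 ribosome biogenesis genes have a median of -0.50, cytosolic ribosomal proteins -0.52, and G2/M genes 0.67.

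Myc itself did not pass the test, while 3 of its antagonists did. Myc stood at 363, 332 and 452 CPM for Wild-type, 344, 207 and 339.6 in Mdmx-Tg, 254, 271 and 237 in Pu.1-URE-/- and 283, 312 and 256 in the double mutant. The 3 Pu.1-URE-/- libraries and the double mutant lay below Wild-type, and Mdmx-Tg 2 was the lowest of all. The change with element loss was -0.33 ± 0.15 (SE) (adjusted p = 0.185). Mxd3, which competes with MYC for MAX, stood at 11, 11.1 and 13.5 CPM for Wild-type, 14.7, 16.8 and 9.67 in Mdmx-Tg, 109, 38.8 and 93.0 in Pu.1-URE-/- and 57.8, 48.7 and 57.9 in the double mutant. Every library without the element lay above every library with it (2.38 ± 0.25 (SE), adjusted p = 0.00022). Mxd4 stood at 18.4, 12.5 and 22.7 CPM for Wild-type, 12.7, 16.6 and 15.5 in Mdmx-Tg, 30.0, 57.9 and 45.2 in Pu.1-URE-/- and 52.96, 42.3 and 63.0 in the double mutant and separated the same libraries (1.57 ± 0.22 (SE), adjusted p = 0.00113). Mxd1 rose by 1.30 ± 0.35 (SE) (adjusted p = 0.0363). Its levels in Pu.1-URE-/- 2 (29.8 CPM) and double mutant 2 (15.8 CPM) lay within the range of the libraries with the element. The other 8 of 11 genes of this network that were tested had no call. Among 22 MYC targets outside the nucleolus, Prdx4 (-1.05 ± 0.23 (SE)), Pabpc4 (-1.02 ± 0.27 (SE)) and Hspd1 (-0.74 ± 0.20 (SE)) were lower and Hk2, a hexokinase, higher (1.28 ± 0.26 (SE)), with a median of -0.45.

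**Figure D5:**
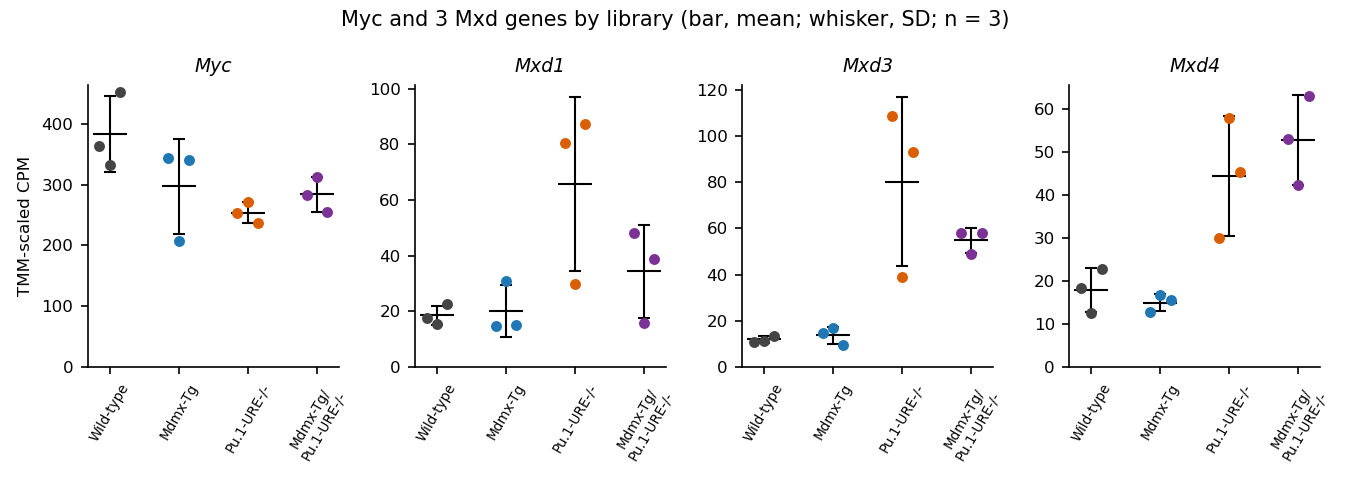
TMM-scaled CPM of Myc and of Mxd1, Mxd3 and Mxd4, with points for libraries, a bar for the mean and whiskers for the SD of 3 libraries. In Mxd3 and Mxd4 all 6 libraries without the element lie above all 6 with it, and in Myc the groups overlap.

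On the p53 side, Rpl11 was highest in Wild-type 3 and stood at 278 and 262 CPM in the other Wild-type libraries, 239, 276 and 314 in Mdmx-Tg, 166, 225 and 188 in Pu.1-URE-/- and 169, 254 and 139.7 in the double mutant. It was lower with element loss (-0.59 ± 0.17 (SE), adjusted p = 0.0437). Rpl5 stood at 31.4, 39.8 and 43.3 CPM for Wild-type, 28.3, 30.1 and 31.5 in Mdmx-Tg, 17.0, 36.5 and 20.8 in Pu.1-URE-/- and 46.6, 22.0 and 25.4 in the double mutant, with overlap between all groups. Rpl5 (-0.28 ± 0.24 (SE), adjusted p = 0.521) and Trp53 (-0.10 ± 0.18 (SE), adjusted p = 0.783) had no call. Trp53 stood at 325, 378 and 416 CPM for Wild-type, 252, 160.5 and 372.5 in Mdmx-Tg, 265, 319 and 292 in Pu.1-URE-/- and 285, 330.4 and 253 in the double mutant, and all groups overlapped but Pu.1-URE-/-, which lay below Wild-type. Of 13 genes of this list tested, Rpl11 was the 1 called with element loss.

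With element loss 11 of 30 G2/M genes and 4 of 28 S phase genes (14.3%) were called higher and 0 lower, beside 8.08% of all genes higher, with medians of 0.67 and 0.27. In Pu.1-URE-/- against Wild-type 3 and 1 of them were called, higher in each case, with medians of 0.77 and 0.13. The share of all genes called higher in that comparison is not given, so these 2 counts are not a result particular to the lists. Cdk1, the mitotic kinase, stood at 123, 180 and 193 CPM for Wild-type, 104, 160.2 and 142 in Mdmx-Tg, 401, 239.8 and 359 in Pu.1-URE-/- and 270.3, 280 and 344 in the double mutant (1.07 ± 0.18 (SE), adjusted p = 0.00341). Kif11 (1.10 ± 0.18 (SE)), Nusap1 (0.78 ± 0.18 (SE)) and Birc5 (0.71 ± 0.17 (SE)) of G2/M and Rrm2 (1.27 ± 0.22 (SE)), Uhrf1 (0.98 ± 0.24 (SE)), Slbp (0.52 ± 0.13 (SE)) and Cdc45 (0.74 ± 0.21 (SE)) of S phase were among those called. All 8 granulocyte-monocyte progenitor markers and all 8 tested of 10 neutrophil markers were called higher. Summed progenitor markers stood at 878 to 2563 CPM in the 6 libraries with the element and at 10350 to 53770 CPM in the 6 without it. Among the libraries without the element, the 3 with the highest progenitor sums, Pu.1-URE-/- 1, Pu.1-URE-/- 3 and double mutant 1, were the 3 with the lowest sums of ribosome biogenesis genes. Stem and progenitor markers summed to 942 to 1379 CPM with the element and 593 to 1235 without it, with calls in both directions among the 11 genes. Slamf1 (-2.56 ± 0.57 (SE)), Mecom (-1.61 ± 0.29 (SE)) and Kit were lower, each without overlap between the 6 libraries with the element and the 6 without it. Cd48 (0.88 ± 0.22 (SE)) and Flt3 (1.58 ± 0.42 (SE)) were higher. Erythroid markers summed to 1834 to 5904 CPM and 1094 to 2954 CPM, with all 8 below 0 and 0 called, 5 at an unadjusted p below 0.05 by edgeR (11.4% of all genes were lower at that level). B and plasma cell markers summed to 2928 to 217700 CPM with the element and 1619 to 32850 CPM without it. The part of these cell type markers in the changes of the 41 genes was not tested.

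Levels per gene summed all its transcripts, and some of these are not coding. Across the 41 genes, 107 retained-intron transcripts of 27 genes took 8.52% ± 0.82 (SD, n = 3) of the reads in Wild-type, 6.45% ± 1.61 in Mdmx-Tg, 8.63% ± 0.35 in Pu.1-URE-/- and 7.26% ± 0.94 in the double mutant. Protein-coding transcripts took 86.9% to 91.1%. For Ncl, retained-intron transcripts held 42.0%, 32.6% and 43.7% of its reads for Wild-type, 20.3%, 15.5% and 39.8% in Mdmx-Tg, 45.0%, 40.7% and 47.1% in Pu.1-URE-/- and 33.7%, 30.0% and 16.8% in the double mutant. The groups overlapped between libraries with and without the element. In Gnl3, transcripts annotated for nonsense-mediated decay took 19.0% to 43.1% of the reads, and in Heatr1 24.1% to 64.1%. With only protein-coding transcripts counted, 13 of the 41 genes were called lower with element loss in place of 9. The share of all genes called in that fit is not given.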

How the data were processed

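RNA of sorted bone marrow cells was selected for polyA tails and read in pairs on a BGISEQ-500, per the labels' protocols. The deposited files hold, for each transcript and library, the authors' Salmon estimated counts, effective lengths and TPM, per the file headers. The submitters' processing notes name FastQC, Salmon, DESeq2 and GRCm38, and versions, index and strand setting are not given in the sources used here.

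Estimated counts of 115995 transcripts (253 had no gene in GENCODE M21 and were left out) were summed per gene and rounded. In all, 15012 genes passed edgeR's filterByExpr (minimum count 10, minimum total 15). edgeR 4.0.16 (R 4.3.3) fitted 1 mean per genotype over 12 libraries with TMM scaling, and quasi-likelihood tests were adjusted by Benjamini-Hochberg over all genes, with a threshold of 0.05. Standard errors are the log2 change divided by the root of F. The biological coefficient of variation was 0.796. On simulated data with known changes the direction of all changed genes was recovered. Depth was 47271286 to 55067735 reads per library, so replicate spread, not counting, set the precision, and depth does not limit these genes.

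The members and all gene lists were chosen with earlier results of these data known, so no test was made over a list. Values per library are given for members past the threshold, for the most abundant member and that with the smallest p in each role, for up to 4 genes of each pathway list, and for Mdm4, Spi1, Myc, Rpl5, Rpl11 and Trp53; other members are given by fold change or range. Utp20, Utp18, Rrp9, Mybbp1a, Dkc1, Noc2l, Rrp1b and Ddx18 were added for their values. A gene that this rule names is not reported here. Alternatives were DESeq2 1.42.0, limma-voom (limma 3.58.1) and changes of scaling, filter, covariates, transcripts and libraries. P-values measure the spread between libraries, each from a mouse of its own number.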

Additional observations from a re-analysis of the deposited data

How the results depend on the processing

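Medians of the 41 genes kept their sign in 7 of the 8 comparisons under every alternative run. The exception was the double mutant against Pu.1-URE-/-, at -0.02 to 0.18. Counts of called genes moved more, and no share of all genes called stands beside those of the alternatives. In Pu.1-URE-/- against Wild-type the count of 1 became 18 with DESeq2, 6 with limma-voom or with only the groups compared, 3 with protein-coding transcripts, 2 with relative log expression factors, with CPM over 1 in 3 libraries or with immunoglobulin genes left out, and 0 with the mouse number series as a block, Y-linked expression as a covariate or the 3 doubted libraries left out. In Mdmx-Tg against Wild-type the count of 0 became 2 with DESeq2. In the double mutant against Wild-type the count of 4 became 9 with DESeq2, and 0 with Y-linked expression or without the 3 doubted libraries. With element loss the count of 9 became 19 with DESeq2, and 2 with Y-linked expression or without the 3 doubted libraries, and 9 of 12 alternatives stayed within 1.5 times. The transgene over both element states went from 0 to 3 with DESeq2, and the median interaction from 0.38 to 0.082 with the mouse number series as a block. The causes were not tested, but leaving out libraries also lowers their number. Leaving out each library in turn gave 0 to 5, 0 to 1, 0 to 5, 0 to 10 and 0 to 3 called genes in these 5 comparisons, and medians of -0.83 to -0.64 in the first and -0.60 to -0.44 with element loss. Comparisons of the double mutant with each single mutant, and the interaction, stayed at 0.

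Same-numbered libraries did not deviate together (18 pairs, r from -0.15 to 0.09), and the main fit used no replicate block. That check cannot show whether such libraries were handled together. With the replicate block the counts were 4 in Pu.1-URE-/- against Wild-type, 2 in the double mutant against Wild-type and 10 with element loss. With 3 libraries per genotype and this spread, a change that misses the threshold is not shown to be absent.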
